A study of Mus musculus with 14 samples.

Results

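The endoplasmic reticulum (ER) folding and unfolded protein response module is a set of 33 genes, chosen by name from the annotation of the array. A gene was counted as measured where a probe set carried its symbol and no other. Each gene was read from 1 probe set, the brightest over all arrays. By this rule 32 of the 33 genes were measured, out of 12393 such genes on the array, and all 32 passed the filter on low intensity. Sec61g shares its probe set with other symbols and was not analysed here. Nupr1 passed the filter only through its 8 h arrays. The data are total liver RNA from mice on 1-colour biotin-labelled expression arrays, with 2 arrays in each of 7 groups. The groups are normal mouse liver, and mouse liver collected 4, 8, 12, 36, 48 and 72 h after partial hepatectomy, an operation that removes part of the organ. Livers of 4 to 6 mice were pooled for an RNA extraction, and no sham-operated group is among the samples, so surgery, anaesthesia and loss of liver mass cannot be told apart. The labels name no strain, sex or age, and nothing in them tells if both arrays of a group hold RNA of different pools, so p-values measure the spread between arrays, which may be technical.

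Proteins that enter the secretory pathway fold in the lumen of the ER, where chaperones, disulfide isomerases and sugar-binding lectins assist them, and proteins that fail to fold are returned to the cytosol and degraded. When unfolded proteins accumulate, the sensors IRE1, PERK and ATF6 start the unfolded protein response. IRE1 splices the RNA of the transcription factor XBP1, PERK lowers translation while favouring that of ATF4, and ATF6 is cut to release a transcription factor. XBP1 and ATF6 raise genes of folding and degradation, and ATF4 raises genes of amino acid supply and the factor CHOP, encoded by Ddit3. Hepatocytes secrete most plasma proteins and hold an extensive ER.

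Many folding genes carry the ER stress element in their promoters, to which the factor NF-Y and, during stress, ATF6 or XBP1 bind. The element reads CCAAT, any 9 bases, CCACG, and a shorter form, element II, reads ATTGG, any 1 base, CCACG. Both strands were searched in windows of 250 bases before to 50 bases after the annotated start. RefSeq windows of build GRCm38.p6 were present for 27 of the 32 members, and Manf, Derl1, Atf6, Hyou1 and Sec61a1 had none in the table. The ER stress element was found in 8 of the 27 (29.6%), namely Calr, Canx, Creld2, Dnajc3, Hsp90b1, Hspa5, Pdia6 and Syvn1, against 39 of all 32851 promoters (0.119%). In these shares members are counted by gene and all promoters by window, and a gene can have several windows, as Derl2 does. Element II was found in Dnajb11 and Herpud1 (7.41%), against 12 of all promoters (0.0365%). The letters TGACGTGG, a site of XBP1 and ATF6, were in no member window, against 0.676% of all promoters. The C/EBP-ATF element, TGATGNAA, a site through which ATF4 acts, was in Herpud1, Nupr1 and Trib3 (11.1%), against 3.97% of all promoters. A match describes letters in a window and does not show that a factor was bound.

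Of the 15 members that had their highest value of the series on replicate 1 of 12 h, the windows of 4 that hold an element are shown. Those of Calr, Dnajb11 and Hsp90b1, which are among the 15 and also hold an element, are not shown. Others of the 15, Dnajb9, Xbp1, Sdf2l1 and P4hb among them, have windows with no match, so the 4 do not stand for the 15. Each is written 5′ to 3′ on the strand of the gene, with matched elements in capitals.
Hspa5, chr2:34771840-34772139, + strand: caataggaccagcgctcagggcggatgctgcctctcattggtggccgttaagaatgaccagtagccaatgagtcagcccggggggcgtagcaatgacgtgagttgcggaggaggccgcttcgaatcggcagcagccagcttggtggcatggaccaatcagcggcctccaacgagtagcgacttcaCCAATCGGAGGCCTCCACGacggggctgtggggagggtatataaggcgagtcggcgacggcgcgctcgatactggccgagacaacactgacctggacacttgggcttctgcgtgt
Creld2, chr15:88819396-88819695, + strand: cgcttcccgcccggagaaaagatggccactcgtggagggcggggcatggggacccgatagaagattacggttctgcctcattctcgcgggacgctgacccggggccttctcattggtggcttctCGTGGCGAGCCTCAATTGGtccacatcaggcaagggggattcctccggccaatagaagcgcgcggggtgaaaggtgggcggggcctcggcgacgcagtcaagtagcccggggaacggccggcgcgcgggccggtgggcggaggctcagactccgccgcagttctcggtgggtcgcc
Syvn1, chr19:6046326-6046625, + strand: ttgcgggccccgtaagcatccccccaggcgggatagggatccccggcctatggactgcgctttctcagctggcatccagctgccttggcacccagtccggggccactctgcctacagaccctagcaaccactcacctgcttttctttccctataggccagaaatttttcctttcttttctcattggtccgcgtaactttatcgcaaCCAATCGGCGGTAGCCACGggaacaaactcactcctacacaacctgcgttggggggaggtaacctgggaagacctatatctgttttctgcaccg
Herpud1, chr8:94386179-94386478, + strand: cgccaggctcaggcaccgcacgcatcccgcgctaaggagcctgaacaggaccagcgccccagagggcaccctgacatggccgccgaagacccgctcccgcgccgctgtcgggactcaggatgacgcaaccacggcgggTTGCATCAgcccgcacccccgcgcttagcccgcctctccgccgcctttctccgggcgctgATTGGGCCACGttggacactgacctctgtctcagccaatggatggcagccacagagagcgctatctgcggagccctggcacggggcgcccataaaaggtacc
In Hspa5 the element lay between bases -65 and -47 of the annotated start, and in Syvn1 between -44 and -26. In Creld2 it lay on the opposite strand, between -126 and -108. Herpud1 held the C/EBP-ATF element on the opposite strand between -112 and -105, and element II between -52 and -42.

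Values are intensities on the linear scale the authors deposited, scaled so that the mean of each array, without the lowest and highest 2% of probe sets, lay between 500.19 and 500.28. Changes are differences of log2(intensity + 57), which understates the change of dim genes, and a change was called where limma's p-value, adjusted by Benjamini-Hochberg over all 13576 probe sets tested, was under 0.05. The 12 measured hepatocyte markers were above background on every array, where background is the level that 95% of the 27 bacterial control probe sets stay under. The 25 measured markers of pancreatic acinar cells, which make digestive enzymes and have a very large ER, were high on 5 arrays. Their summed intensity was 51187 and 51158 at 4 h, 374820 and 351590 at 8 h and 60884 on replicate 2 of 36 h, and between 3091.5 and 8358.2 on the other 9 arrays, normal liver included. Skeletal muscle markers summed to 13415 to 22688 on the 4 and 8 h arrays, against 1608.3 and 766.9 in normal liver. On replicate 2 of 8, 12, 36 and 72 h, the signal of the 5′ end of pyruvate carboxylase was 0.0909 to 0.137 of that of its 3′ end, against 0.305 to 0.584 on the other 10 arrays, and these 4 arrays are called the low-ratio arrays. In bulk liver RNA, fewer cells of a type and less RNA per cell cannot be told apart.

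Against normal liver, most calls in the module lay at 8 and 12 h, where calls were also most frequent over the whole array, at 9.59% and 12.2% of all probe sets tested. Dnajb9, Xbp1 and Nupr1 were higher at 8 h than in normal liver, Dnajb9, Xbp1, Manf, Herpud1, Atf4 and Ddit3 were higher at 12 h, and Derl2 was lower at both times. These 8 of the 32 members were called in at least 1 of 9 comparisons, beside 25.1% of all probe sets tested, so the share called in the module was close to that of the array. Nupr1 entered the tests only through its 8 h arrays, and without it 7 of 31 members were called, with 2 higher at 8 h, 4 lower late than early and 1 higher at 8 h than at 4 h. By its brightest probe set, none of the 6 disulfide and proline isomerases, the 2 lectin chaperones or the 3 translocon subunits was called. The moderated F test of limma over all 6 times called Nupr1, Dnajb9, Xbp1, Derl2, Atf4 and Herpud1, which are 6 of 32 members beside 13.1% of all probe sets, or 5 of 31 without Nupr1.

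**Figure D1:**
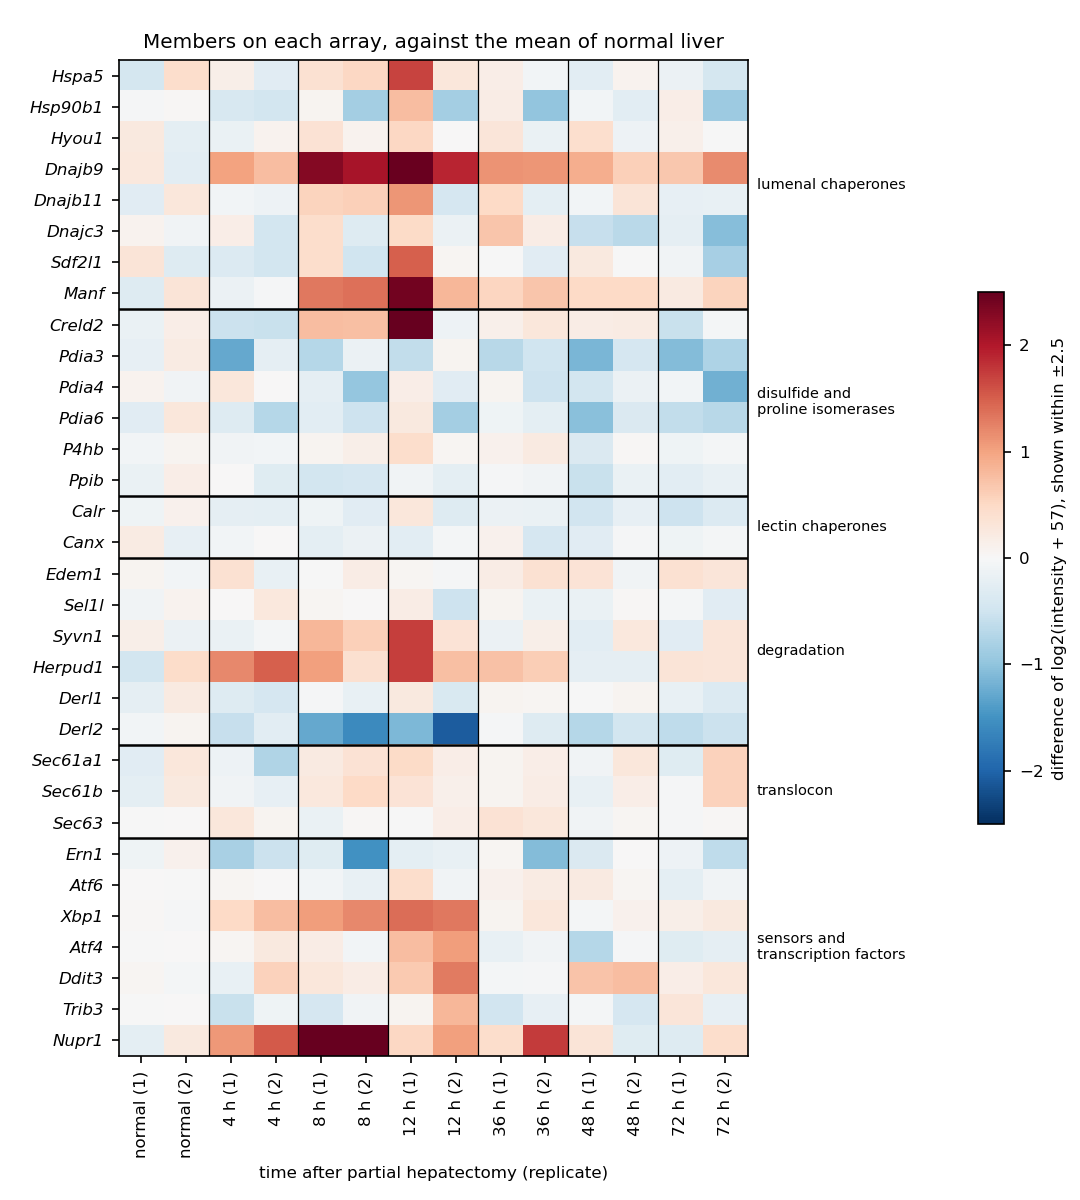
Each of the 32 members (down the page, grouped by role) on each of the 14 arrays (left to right from normal liver to 72 h), as the difference of log2(intensity + 57) from the mean of the 2 normal arrays, with red for higher and blue for lower. Dnajb9 and Xbp1 are red at 8 and 12 h, Derl2 is blue at the same times, Nupr1 is darkest at 8 h, and replicate 1 of 12 h is red in more members than replicate 2.

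By time, 0 members were called at 4 h (2.42% of all probe sets were called), with 4 at an unadjusted p under 0.05. At 8 h 3 members were higher (4.87% of all probe sets) and 1 was lower (4.72%). At 12 h 6 were higher (5.98%) and 1 was lower (6.22%). At 36 h 1 member was higher (2.28%) and 0 were lower (1.89%), beside 4.17% of all probe sets in either direction. At 48 h 0 members were called, beside 2.32% of all probe sets (1.64% higher and 0.685% lower). At 72 h again 0 were called, beside 2.49% (1.62% higher and 0.869% lower). At each of these 2 times, 2 members had an unadjusted p under 0.05. By a 2-fold difference of mean intensities without a test, the rule named in the design text, 2 members differed from normal liver at 4 h (9.31% of all probe sets tested) and 6 at 8 h (15.8%). At 12 h 10 members did (19.1%), at 36 h 2 (10.2%), at 48 h 0 (8.52%) and at 72 h 0 (8.35%). By the same rule 1 member differed late against early (6.45%), 5 at 8 h against 4 h (8.51%) and 11 at 36 h against 12 h (12.2%), 10 of these lower at 36 h. The median of the module moved little. From 4 to 72 h in turn, the median log2 change of the 32 members was -0.09, 0.06, 0.23, 0.05, -0.05 and -0.17. The median of all probe sets tested was -0.00, 0.09, 0.12, 0.07, 0.12 and 0.11 in the same order of times. The group mean was highest at 12 h in 16 of the 32 members.

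Dnajb9 encodes ERdj4, a J-domain partner of the chaperone BiP and a known target of spliced XBP1. Its intensity was 1365 and 918 in normal liver, 2309.7 and 1963 at 4 h, 5713 and 4887 at 8 h, 6446 and 4361 at 12 h, 2525 and 2483 at 36 h, 2153 and 1726 at 48 h, and 1822 and 2614 at 72 h. Every array after hepatectomy was above both normal arrays. The rise was 2.18 (SE 0.28, adjusted p = 0.000621) at 8 h and 2.19 (SE 0.28, adjusted p = 0.000722) at 12 h. At 36 h it was 1.12 (SE 0.28, adjusted p = 0.0455), and at 4 h the difference of 0.89 was not called (adjusted p = 0.142). The 8 h level exceeded the 4 h level by 1.29 (SE 0.28, adjusted p = 0.0460). The calls at 8 and 12 h held in all 14 fits that left out 1 array, that at 36 h in 3 of them, and that of 8 h over 4 h in 4. Only fits that left out an array of a compared group could alter the change, and the others estimated only its spread anew.

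Manf, a secreted ER protein that is raised by ER stress, behaved alike on both arrays at 8 h but not at 12 h. It measured 1582 and 2495 in normal liver, 1782 and 1956 at 4 h, 5047 and 5259 at 8 h, and 10902 and 3575 at 12 h. The later arrays lay between 2330 and 3246. At 12 h the rise was 1.63 (SE 0.40, adjusted p = 0.0217), and at 8 h the difference of 1.35 was just short of the threshold (SE 0.40, adjusted p = 0.0553). Replicate 1 carried the 12 h value, since without it the difference was 0.83 (adjusted p = 0.0907), and the call was also lost without replicate 1 of normal liver (1.31, adjusted p = 0.0872).

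Hspa5 encodes BiP, the main chaperone of the ER lumen and the usual marker of the response. Its intensity was 7625 and 14223 in normal liver, 11466 and 8529.5 at 4 h, 13515 and 14920.5 at 8 h, 33578 and 12704 at 12 h, 11618 and 9989 at 36 h, 8644 and 11103 at 48 h, and 9372 and 7706 at 72 h. Replicate 1 of 12 h stood above all other arrays, and the 2 normal arrays differed by more than the other groups did, 12 h excepted. The 12 h difference was 0.98 (SE 0.41, adjusted p = 0.133), which was not called. It turned on replicate 1 of 12 h, being 0.28 (adjusted p = 0.626) without that array and 1.68, called (adjusted p = 0.0169), without replicate 2. These values are of the brightest probe set. The other probe set of Hspa5 had 3283 and 2773 in normal liver, 5839.5 and 5569 at 8 h, and 12624 and 4281 at 12 h. On it both arrays of 8 h and both of 12 h were above both normal arrays. The chaperones Hsp90b1 (GRP94), Hyou1, Dnajb11, Dnajc3 and Sdf2l1 were not called in any comparison by their brightest probe sets. A dimmer probe set of Dnajc3, which encodes a J-domain protein that also restrains PERK, was called lower at 72 h than in normal liver (-1.29, SE 0.30, adjusted p = 0.0422) and lower late than early (-0.74, SE 0.17, adjusted p = 0.0116). Dimmer probe sets of 2 other uncalled members were called too, that of the isomerase Ppib lower at 8 h (-0.95, SE 0.22, adjusted p = 0.0181) and that of the translocon gene Sec63 higher late than early (0.45, SE 0.14, adjusted p = 0.0463).

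Xbp1, the transcription factor downstream of IRE1, was high on both arrays of each early time. Its intensity was 5951 and 5753 in normal liver, 8305 and 10076 at 4 h, 12155 and 13539 at 8 h, 15416 and 14611 at 12 h, 6135 and 7141 at 36 h, 5690 and 6282 at 48 h, and 6451 and 6959 at 72 h. All 6 early arrays were above all 8 others. The rise was 1.12 (SE 0.21, adjusted p = 0.00523) at 8 h and 1.35 (SE 0.21, adjusted p = 0.00166) at 12 h. At 4 h the difference was 0.64 (adjusted p = 0.153). The annotation does not say whether a probe set reads the spliced RNA, so these are levels of the gene and not of its active form. Of the other 3 probe sets of Xbp1, 2 were also called at 8 and at 12 h, and the dimmest had the same sign with 0.81 (adjusted p = 0.119) and 0.99 (adjusted p = 0.0546).

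**Figure D2:**
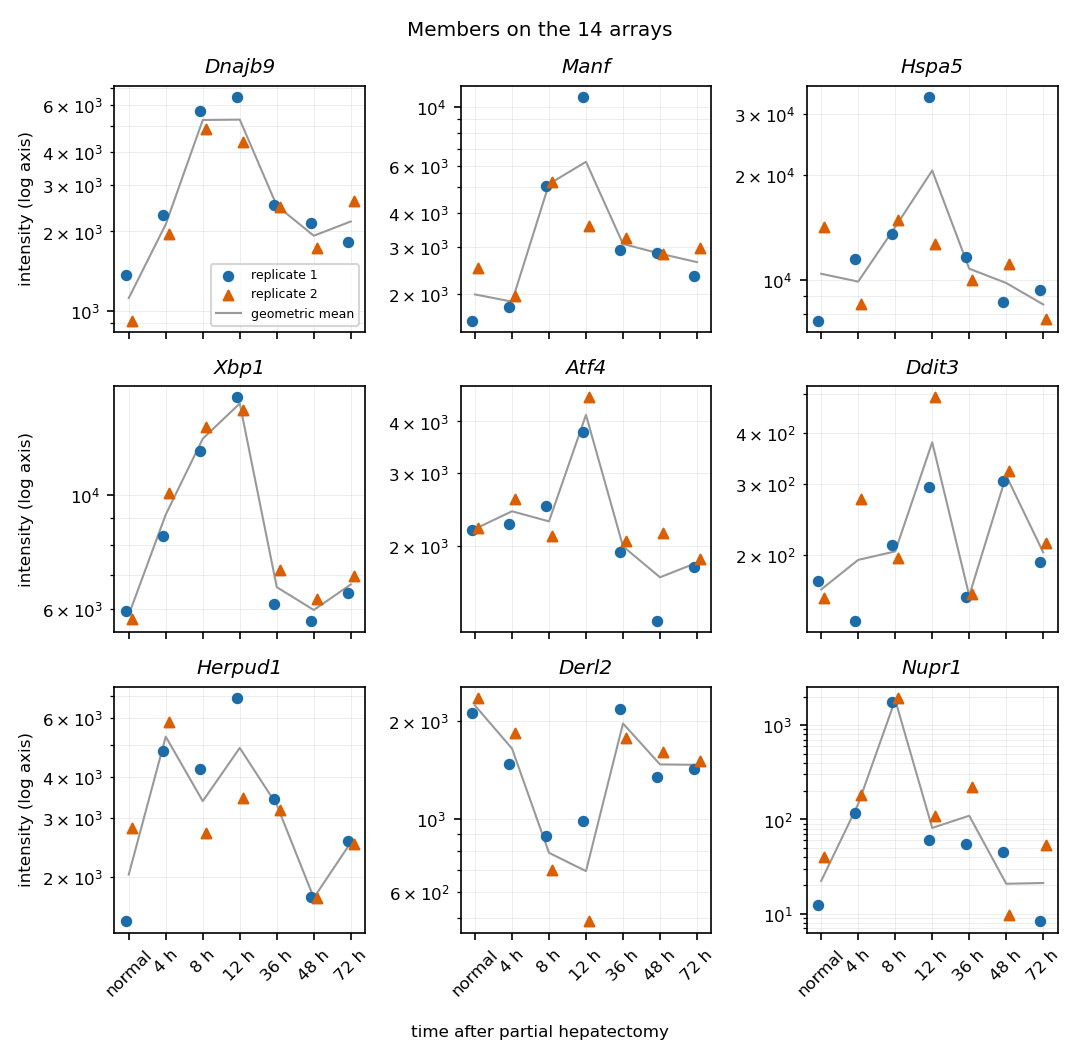
Intensity (log axis) of 9 members in normal liver and at 6 times after partial hepatectomy, with a circle for replicate 1, a triangle for replicate 2 and a line through the geometric means. Xbp1 and Dnajb9 peak at 8 to 12 h on both arrays, Manf and Hspa5 have 1 high array at 12 h, Derl2 dips at 8 and 12 h, and Nupr1 peaks at 8 h.

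Atf4 and Ddit3 were higher at 12 h. Atf4, the factor of the PERK branch, had intensities of 2184 and 2209 in normal liver, 2258.5 and 2601 at 4 h, 2492 and 2106 at 8 h, 3765 and 4573 at 12 h, and 1931 and 2056 at 36 h. It had 1313 and 2141 at 48 h and 1778 and 1862 at 72 h. Both 12 h arrays were above all other arrays of the series. The change at 12 h was 0.90 (SE 0.25, adjusted p = 0.0345), and the other probe set of Atf4 gave 1.29 (SE 0.36, adjusted p = 0.0359).

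Ddit3 encodes CHOP, a factor of the C/EBP family that acts late in sustained ER stress. It was dim, at 173 and 157 in normal liver, 138 and 276 at 4 h, 213 and 197 at 8 h, 295 and 490.1 at 12 h, 158 and 161 at 36 h, 306 and 324 at 48 h, and 193 and 214 at 72 h. At 8, 12, 48 and 72 h both arrays were above both normal arrays, and the means were highest at 12 and 48 h. Only the 12 h change of 0.98 was called (SE 0.28, adjusted p = 0.0392), against 0.74 (SE 0.28, adjusted p = 0.245) at 48 h. The 12 h call held in 7 of 14 fits without 1 array for Atf4 and in 5 for Ddit3. Both calls were lost with the low-ratio arrays as a block, where Atf4 gave 0.88 (adjusted p = 0.0585) and Ddit3 gave 0.90 (adjusted p = 0.0748). Trib3, a pseudokinase raised by ATF4 and CHOP, had 256 and 478 at 12 h, against 239 and 245 in normal liver, and was not called.

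The sensors among the members, Atf6 and Ern1, showed no called change. PERK is encoded by Eif2ak3, which is not a member and is described below with the other genes of the pathway. Atf6 had 606 and 602 in normal liver, 624 and 606 at 4 h, 569 and 521 at 8 h, 845 and 562 at 12 h, 651 and 707 at 36 h, 713 and 623 at 48 h, and 501 and 562 at 72 h. Ern1, which encodes IRE1 alpha, was dim, with 211 and 254 in normal liver, 107 and 143 at 4 h, 176 and 44.5 at 8 h, 186 and 198 at 12 h, 242 and 78.3 at 36 h, 169 and 233 at 48 h, and 207 and 129 at 72 h. Its 8 h difference of -0.91 (SE 0.41) was not called (adjusted p = 0.190), and 1 of the 2 arrays at 8 h was not above background.

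Nupr1, a stress-induced chromatin protein first described in the inflamed pancreas of the rat, had the largest change from normal liver of the 32 members. It had 12.4 and 40.1 in normal liver, 117 and 182 at 4 h, 1758 and 1952 at 8 h, 60.6 and 109 at 12 h, 54.4 and 220.4 at 36 h, 45.1 and 9.6 at 48 h, and 8.3 and 54.1 at 72 h. Both normal arrays were below background, so the fold is a bound of the mean against the background there. At 8 h Nupr1 was at least 32.9-fold higher than in normal liver, and its other probe set gave at least 24.2-fold. The 8 h level exceeded the 4 h level by 3.23. Because the filter kept Nupr1 only through these 8 h arrays, its mean on the other 12 being 76.06, both differences are given as a description. In the fit of all probe sets, with no filter, their adjusted p-values in limma were 0.000343 and 0.0123. The next highest levels were those of replicate 2 of 36 h and of the 4 h arrays.

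Those are also the arrays with acinar transcripts. The 5 arrays with the highest acinar sums were the 5 with the highest Nupr1. Of the 25 acinar markers, 23 were called higher at 8 h than in normal liver and 10 at 4 h, and the part of acinar RNA in the Nupr1 values was not tested. At 12 h the acinar sums were 8358.2 and 5915.8, against 6175.2 and 5191.1 in normal liver, and 0 of 25 markers were called. Of the 25 markers 21 lay above normal liver at 12 h, with a median log2 change of 0.79, against 0.12 for all probe sets tested. Replicate 1 of 12 h had 19 markers above background and a median intensity of 215.5, and replicate 2 had 9 and 64.2. The normal arrays had 13 and 11 markers above background, with medians of 79.9 and 36.4. By the brightest probe sets, the changes of Dnajb9, Xbp1 and Derl2 were at least as large at 12 h as at 8 h. Both arrays of 4 h and both of 8 h are acinar-rich, so at these times acinar RNA and other changes after hepatectomy cannot be told apart. The part of acinar RNA in the values of these members was not tested. None of the 5 acinar-rich arrays is a normal or a 12 h array, so leaving them out, an alternative chosen after the data were seen, keeps the 12 h changes by construction and estimates only their spread anew. In that smaller fit Dnajb9 (adjusted p = 0.00950), Xbp1 (adjusted p = 0.0186) and Derl2 (adjusted p = 0.0274) were called. Manf (adjusted p = 0.0788), Herpud1 (adjusted p = 0.103), Atf4 (adjusted p = 0.118) and Ddit3 (adjusted p = 0.0849) were not. Of other marker lists, 14 of 15 tested muscle genes were higher at 4 h, 13 at 8 h and 1 at 12 h. Of 11 Kupffer cell markers, 2 were lower at 8 h, 4 were lower at 12 h and 1 was higher at 36 h. Of 8 neutrophil markers, 1 was higher at each of 4, 12 and 36 h and 2 were higher at 8 h, and of 4 plasma cell and B cell markers 0 were called against normal liver at any time. Their part in the member values was not tested.

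**Figure D3:**
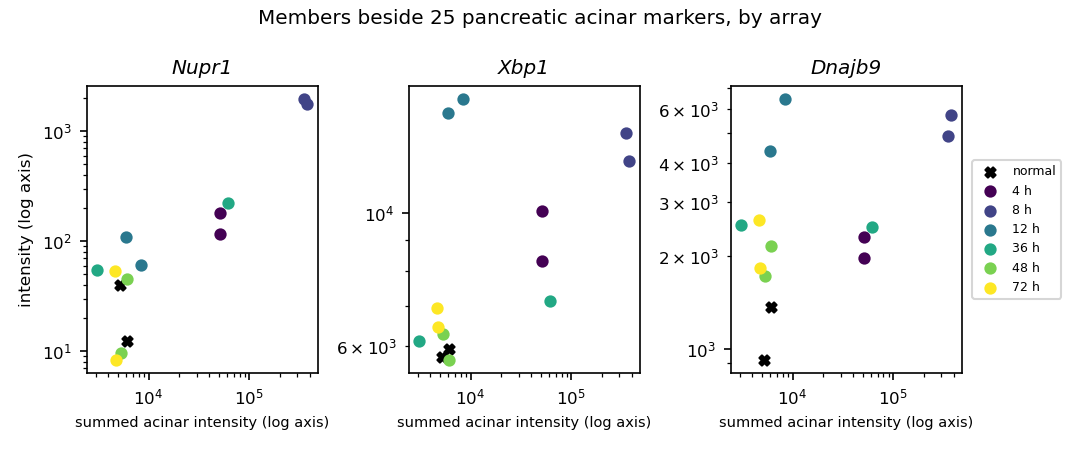
Intensity of Nupr1, Xbp1 and Dnajb9 (log axes) against the summed intensity of 25 pancreatic acinar markers (log axis) on the 14 arrays, coloured by time, with crosses for normal liver. Nupr1 is highest on the 5 arrays with the highest sums, while Xbp1 and Dnajb9 are also high on the 12 h arrays, whose sums are 8358.2 and 5915.8.

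In ER-associated degradation, Herpud1 rose and Derl2 fell. Herpud1 encodes a membrane protein that assembles the degradation complex and is a sensitive reporter of ER stress. It had 1470 and 2813 in normal liver, 4782 and 5852 at 4 h, 4217 and 2713 at 8 h, 6925 and 3455 at 12 h, 3426 and 3171 at 36 h, 1737 and 1723 at 48 h, and 2561 and 2519 at 72 h. Both arrays of 4, 12 and 36 h were above both normal arrays, which differed widely. On the other probe set of Herpud1 both arrays of 4, 8, 12 and 36 h were. The change at 12 h was 1.24 (SE 0.36, adjusted p = 0.0430), and the 4 h difference of 1.35 was not called (SE 0.36, adjusted p = 0.0769). The 12 h call held in 4 of 14 fits without 1 array. The difference was 0.75 (adjusted p = 0.209) without replicate 1 of 12 h and 0.79 (adjusted p = 0.175) without replicate 1 of normal liver. The other probe set gave 1.39 (SE 0.26, adjusted p = 0.00591) at 12 h. With the replicate number as a block the change of the brighter probe set had an adjusted p of 0.0501.

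Derl2 encodes a derlin, a membrane protein of the channel that returns misfolded proteins to the cytosol. It had 2111 and 2356 in normal liver, 1474 and 1842 at 4 h, 892 and 699 at 8 h, 989 and 487 at 12 h, 2177 and 1774 at 36 h, 1347 and 1609 at 48 h, and 1425 and 1513 at 72 h. The 4 arrays of 8 and 12 h were below all other arrays. Derl2 fell by 1.43 (SE 0.29, adjusted p = 0.0101) at 8 h and by 1.60 (SE 0.29, adjusted p = 0.00488) at 12 h. The dimmer probe set of Derl2 was lowest at 4 h, with 195.7 and 231.4, against 637.4 and 885.2 in normal liver. It fell by 1.09 (SE 0.31, adjusted p = 0.0467) at 8 h. At 12 h it gave -0.76 (SE 0.31), which was not called (adjusted p = 0.130). Derl1, a close relative, had 1563 and 1400 at 8 h and 1905 and 1222 at 12 h, against 1366 and 1871 in normal liver. It was not called by this brightest probe set. On each of its dimmer probe sets both 8 h arrays were above both normal arrays. These had 1086 and 1477.5 at 8 h against 447 and 344 in normal liver, 668 and 707 against 489.5 and 280, and 1176 and 1452 against 1012 and 1097.

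Syvn1, the ubiquitin ligase HRD1, had 3886 and 1460 at 12 h, against 1264 and 1024 in normal liver, a difference of 1.03 (SE 0.39, adjusted p = 0.0998). It was 0.34 (adjusted p = 0.501) without replicate 1 of 12 h. Without replicate 2 it was 1.72 and called (adjusted p = 0.00894), as it was without the low-ratio arrays (adjusted p = 0.0361). Its partner Sel1l and the mannosidase-like Edem1 were not called in any comparison. Among the isomerases, Creld2 had 4132 and 570 at 12 h, against 549 and 712 in normal liver. Its difference of 1.25 (SE 0.60, adjusted p = 0.190) rested on replicate 1, and without that array it was -0.12. Without replicate 2 it was 2.62 and called (adjusted p = 0.000395). The uncalled members at 12 h ranged from -0.31 for Pdia6 to 1.25 for Creld2. At 72 h they ranged from -0.93 for Pdia3 to 0.93 for Dnajb9.

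The 2 arrays of 12 h differed in a number of folding genes. Replicate 1 had the highest value of all 14 arrays in 15 of 32 members (46.9%), against 9.71% of all probe sets tested. On the scale of log2(intensity + 57), 8 members were more than 1 higher on replicate 1 than on replicate 2, beside 6.19% of all probe sets, and 0 were more than 1 lower, beside 4.59%. In intensity, Creld2 was 7.25-fold higher on replicate 1. Hsp90b1 was 3.15-fold, Manf 3.05-fold, Dnajb11 2.99-fold, Sdf2l1 2.84-fold, Syvn1 2.66-fold, Hspa5 2.64-fold and Pdia6 2.16-fold higher. Of these 8, 3 have another tested probe set, which was 2.95-fold higher on replicate 1 for Hspa5 and 1.51-fold for Hsp90b1, while that of Pdia6 was at 0.842-fold. All are chaperones, folding enzymes or, for Syvn1, part of the degradation machinery. On replicate 2 their log2 differences from normal liver ranged from -0.86 for Hsp90b1 to 0.83 for Manf. Xbp1 was nearly equal, at 1.06-fold, while 8 members were lower on replicate 1. These were the factors and regulators Atf4 at 0.823-fold, Ddit3 at 0.601-fold, Trib3 at 0.536-fold and Nupr1 at 0.554-fold, the sensor Ern1 at 0.940-fold, and the folding and translocon genes Pdia3 at 0.619-fold, Canx at 0.851-fold and Sec63 at 0.878-fold.

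Replicate 2 of 12 h is a low-ratio array, as is replicate 2 of 8, 36 and 72 h. Over all 32 members, the median of replicate 1 minus replicate 2 on the log2 scale was 0.52 at 12 h. At 8 h it was 0.07, at 36 h 0.03, and at 72 h -0.06. For the 8 members more than 1 higher at 12 h, the median was 0.13, 0.18 and 0.03 at the same times. Hsp90b1 alone of the 8 was also more than 1 higher on replicate 1 at 36 h (1.16) and 72 h (1.08). By its brightest probe set it had 2358, 2346, 2149 and 2249 on the low-ratio arrays, and 3097 to 7377 on the other 10. Its other probe set had 3069, 4097, 3131 and 3925 on the low-ratio arrays, and 2487 to 6201 on the others. The part of the low ratio in the gap at 12 h was not tested. The 2 arrays of 12 h also had the lowest correlation across probe sets of any pair of replicates, 0.910, and the other pairs had 0.942 to 0.970.

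Members with an ER stress element, either form, in the printed kind of window were compared with the others on these arrays as a description. Of 10 such members, 6 were more than 1 higher on replicate 1 than on replicate 2, and the median difference was 1.24, ranging from -0.23 in Canx to 2.74 in Creld2. Among 17 members with a window and no element, Sdf2l1 was the 1 with such a difference, and the median was 0.08. Among the 5 members without a window it was Manf. The windows of 4 of the 10 are printed above, and of these Herpud1 differed by 0.99, the others by more than 1. These 4 were picked among members highest on replicate 1 of 12 h, so the choice itself favoured a large difference.

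**Figure D4:**
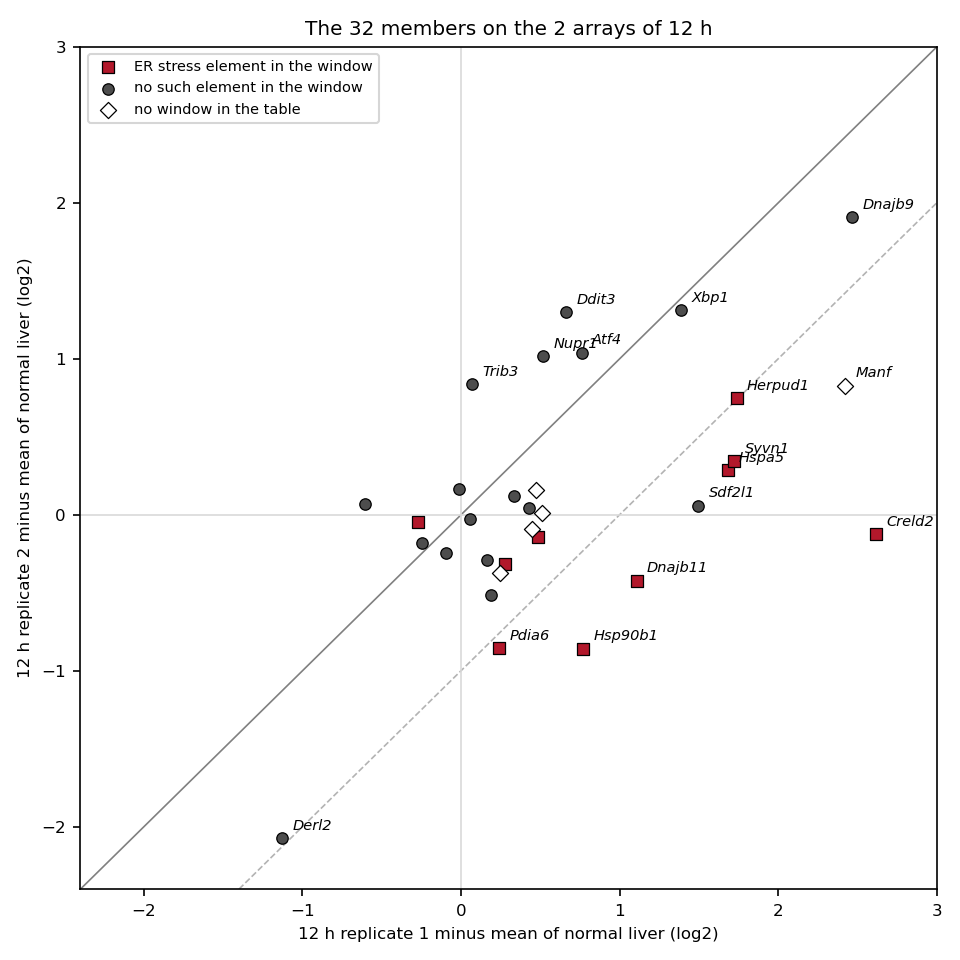
Each of the 32 members on replicate 1 (x axis) and replicate 2 (y axis) of 12 h, as the difference of log2(intensity + 57) from the mean of normal liver. Points below the dashed line were more than 1 higher on replicate 1, and 6 of these 8 are red squares, members with an ER stress element, while 8 members, Atf4, Ddit3, Trib3 and Pdia3 among them, lie above the solid line of equal change.

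The late times (36, 48 and 72 h) were set against the early times (4, 8 and 12 h) to ask whether the early levels had passed. In the late arrays 5 members were lower (5.96% of all probe sets tested) and 1 was higher (9.92%). Xbp1 had a mean of 6443 in the late arrays and 12350 in the early ones, a difference of -0.90 (SE 0.12, adjusted p = 0.000303). Dnajb9 averaged 2220 late and 4280 early, a difference of -0.82 (SE 0.16, adjusted p = 0.00464). Herpud1 averaged 2523 late and 4657 early (-0.85, SE 0.21, adjusted p = 0.0155), and Atf4 1847 late and 2966 early (-0.63, SE 0.14, adjusted p = 0.0108). Nupr1 differed by -1.82 (adjusted p = 0.00100 in the fit with no filter). Derl2 was the member that was higher late, with a mean of 1641 late and 1064 early, a difference of 0.71 (SE 0.17, adjusted p = 0.0145). In the same comparison 23 of 25 acinar markers were lower late (median -2.65), as were 14 of 15 muscle markers (median -2.22), 2 of 12 hepatocyte markers and 2 of 8 neutrophil markers, while 2 of 11 Kupffer cell markers were higher. Their part in the member values was not tested.

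Between 12 and 36 h the levels of Xbp1 and Atf4 dropped and that of Derl2 recovered. Of the 32 members 2 were lower at 36 h than at 12 h (1.3% of all probe sets) and 1 was higher (3.09%), beside 4.4% in either direction. Xbp1 averaged 6638 at 36 h and 15010 at 12 h, a difference of -1.17 (SE 0.21, adjusted p = 0.00740). Atf4 averaged 1993 at 36 h and 4169 at 12 h, a difference of -1.04 (SE 0.25, adjusted p = 0.0350). Its other tested probe set gave -1.24 (SE 0.36, adjusted p = 0.0752), which was not called. Derl2 averaged 1975 at 36 h and 738 at 12 h, a difference of 1.42 (SE 0.29, adjusted p = 0.0181), but its dimmer probe set gave -0.07 (SE 0.31). Both times have 1 low-ratio array. Within the low-ratio arrays the differences were -1.03 for Xbp1, -1.13 for Atf4 and 1.75 for Derl2, and within the others -1.32, -0.94 and 1.09 for the same genes. Dnajb9 averaged 2504 at 36 h and 5404 at 12 h, and its difference of -1.07 was just short of the threshold (SE 0.28, adjusted p = 0.0534). Between 4 and 8 h, 2 members were higher at 8 h (0.803% of all probe sets), Nupr1 and Dnajb9, and 0 were lower (0.619%).

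Other genes of the pathway were counted from 4 lists that share no gene with the module. Of 17 further folding and disulfide genes 3 were called in any comparison, beside 25.1% of all probe sets. Txndc12, a thioredoxin-like ER protein, averaged 909 late and 595 early (0.55, SE 0.13, adjusted p = 0.0154). Dnajc1, an ER J-domain protein, averaged 284 late and 182 early (0.50, SE 0.13, adjusted p = 0.0207). Fkbp7, a prolyl isomerase, averaged 204 at 12 h and 70.4 in normal liver (1.09, SE 0.31, adjusted p = 0.0430). Of 28 genes of translocation and N-glycosylation 4 were called. Srp68 and Srp19, subunits of the signal recognition particle that brings nascent proteins to the ER, were higher at 8 h than in normal liver. Srp68 had 1946 and 2124 at 8 h, against 878 and 932 in normal liver (1.12, SE 0.27, adjusted p = 0.0218). Srp19 had 1536 and 1440.4 at 8 h, against 639 and 606 in normal liver (1.18, SE 0.29, adjusted p = 0.0255). Srpr, a subunit of its receptor, rose by 0.83 (SE 0.22, adjusted p = 0.0295) at 12 h. Ssr1, of the translocon-associated complex, rose by 1.09 (SE 0.31, adjusted p = 0.0420) at the same time. Of 18 further degradation genes 2 were called. Ube2g2, a ubiquitin-conjugating enzyme of this pathway, was higher at 8 h (0.99, SE 0.27, adjusted p = 0.0368) and 12 h. Erlin1, a lipid-raft protein of the ER, had 1922 and 2451 at 72 h, against 1156 and 852 in normal liver (1.09, SE 0.25, adjusted p = 0.0445).

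The last list holds stress sensors and regulators of the ATF4 and ATF6 branches. Of its 21 tested genes 3, 6, 7, 3, 2 and 1 were called higher than normal liver at 4, 8, 12, 36, 48 and 72 h, beside 1.6%, 4.87%, 5.98%, 2.28%, 1.64% and 1.62% of all probe sets tested, and 0 lower at any time. In at least 1 comparison 12 of the 21 were called, beside 25.1% of all probe sets. Psat1 entered the tests only through its 36 h arrays, and without it 3, 5, 6, 2, 1 and 0 of 20 genes were called higher at these times and 11 in at least 1 comparison. The lists were not tested against each other. The median change was 0.38, 0.79, 1.04, 0.28, 0.10 and 0.07 at these times. The F test called 6 of the 21, beside 13.1% of all probe sets. It called 1 of 28 translocation genes, 1 of 18 degradation genes and 0 of 17 folding genes. Asns, the asparagine synthetase gene and a textbook target of ATF4, had 547 and 294 in normal liver, 998.5 and 1046 at 4 h, 1006 and 1289.5 at 8 h, 1245 and 1048 at 12 h, 1343 and 1653 at 36 h, 1384 and 1136 at 48 h, and 869.7 and 922 at 72 h. Each array after hepatectomy was above both normal arrays, and Asns was called higher from 4 to 48 h, with 1.75 (SE 0.27, adjusted p = 0.00400) at 36 h.

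Psat1, a serine synthesis enzyme raised by ATF4, was below background on both normal arrays, at 10.9 and 1.9. It had 8.1 and 10.0 at 4 h, 119 and 175 at 8 h, 167 and 298 at 12 h, 399 and 502 at 36 h, 73.4 and 126 at 48 h, and 148 and 123 at 72 h. It was at least 7.96-fold higher at 36 h than in normal liver, which is given as a description because the filter kept Psat1 only through the 36 h arrays. In the fit with no filter the adjusted p was 0.000438. Fgf21, a liver hormone raised by fasting and by ATF4, was also below background in normal liver, at 37.6 and 29.9. It had 203 and 234 at 4 h, 209 and 285 at 8 h, 520.3 and 392 at 12 h, 500.1 and 684 at 36 h, 50.6 and 101 at 48 h, and 44.6 and 165 at 72 h. It was at least 10.4-fold higher at 36 h than in normal liver (adjusted p = 0.000947). Both genes were thus highest at 36 h, when Atf4 itself had 1931 and 2056, against 2184 and 2209 in normal liver.

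Cebpb, a C/EBP factor that pairs with ATF4, was highest at 4 h, with 7642 and 8172, against 2398 and 2609 in normal liver, a rise of 1.64 (SE 0.26, adjusted p = 0.00666). At 12 h it had 4943 and 7575, a rise of 1.27 (SE 0.26, adjusted p = 0.00943). Eif2ak3, which encodes PERK and was chosen after its values were seen, had 749 and 640.0 at 8 h and 645 and 549 at 12 h, against 311 and 274.5 in normal liver. Its rise was 1.10 (SE 0.22, adjusted p = 0.00781) at 8 h and 0.90 (SE 0.22, adjusted p = 0.0185) at 12 h.

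**Figure D5:**
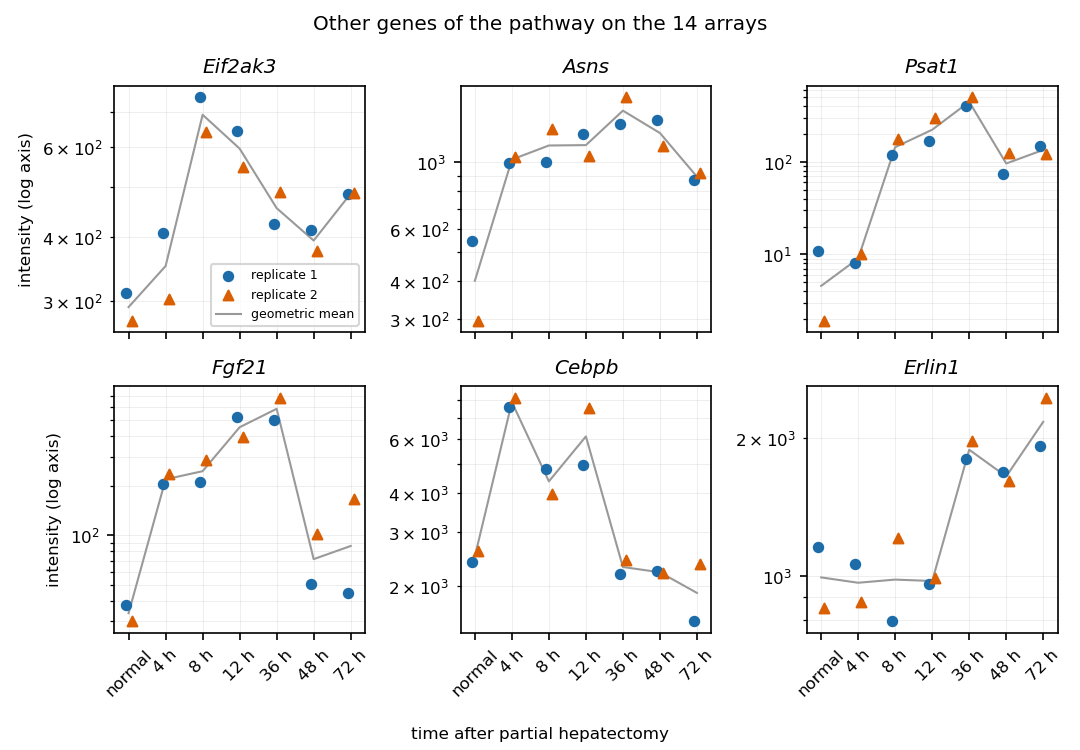
Intensity (log axis) of 6 other genes of the pathway in normal liver and at 6 times after partial hepatectomy, with a circle for replicate 1, a triangle for replicate 2 and a line through the geometric means. Psat1 and Fgf21 peak at 36 h, Eif2ak3 at 8 h and Cebpb at 4 h, and the 6 late values of Erlin1 lie above its others.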

How the data were processed

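The authors deposited 1 table of intensity values for 14 one-colour arrays. Its trimmed means, taken without 2% at each end, lie between 500.19 and 500.28 on all arrays, so the deposited values had been scaled. The software behind the values is not stated in the sources used here. Livers of 4 to 6 mice were pooled per RNA extraction and the authors selected genes by 2-fold difference from normal liver, per the labels. Of 22690 probe sets, 64 are controls. Symbols came from the array annotation.

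Intensities were kept as scaled, 57 (the 25th percentile) was added, and log2 was taken. Probe sets whose mean reached the 40th percentile, 128.8, entered the tests (13576). With limma 3.58.1 in R 4.3.3, 1 linear model of the 7 groups used all arrays (residual degrees of freedom 7, prior 5.08). Its 9 contrasts and F test were each adjusted by Benjamini-Hochberg. The steps were tested on simulated data with changes added at 8 h. Of 100 probe sets simulated with a log2 change of 1, 9 were called, and of 100 with a change of 2, 74 were called. Of 13376 with no change, 4 were called. The number of arrays limits the precision. Where both arrays of the dimmer group were below background, the fold is given as a bound, the brighter mean over the background of the dimmer arrays, and written with at least.

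The members and lists were chosen with earlier results of these data known. Every member was accounted for. Values by array were given for members called and for the sensors and main outputs, and up to 4 called genes of each other list were named, by lowest p of the F test. Marker lists were of hepatocytes, pancreatic acinar cells, skeletal muscle, plasma and B cells, Kupffer cells and neutrophils. The alternatives were quantile normalization, other pseudocounts and filters, an intensity trend, weights for arrays, replicate numbers as a block, the low-ratio arrays as a block or left out, probe sets averaged by gene, the compared arrays alone, 2-fold without a test, and each array left out in turn. Protein sequences were not used here.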

Additional observations from a re-analysis of the deposited data

Results flagged for a closer look

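Of the 32 members, 6 differed between times after hepatectomy by a test of that difference in limma. Late minus early times gave -0.82 for Dnajb9, -0.85 for Herpud1, -0.90 for Xbp1, -0.63 for Atf4, -1.82 for Nupr1 and 0.71 for Derl2 on the log2 scale. The 36 h level minus the 12 h level gave -1.17 for Xbp1, -1.04 for Atf4 and 1.42 for Derl2. The 8 h level minus the 4 h level gave 1.29 for Dnajb9 and 3.23 for Nupr1. Nupr1 entered the tests only through its 8 h arrays, so its values are a description. Groups of 2 arrays are too small to test for an outlying array.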

How the results depend on the processing

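Of 23 called member changes, 608 alternative values were computed, of which 486 kept direction and call, 122 kept the direction and lost the call, and 0 reversed. Leaving out an array of a group that is not compared keeps the change by construction, so such values could not reverse. Some changes kept their call in every alternative fit with a test that could be made for them. These were Dnajb9 at 8 and 12 h, Nupr1 at 8 h, and Dnajb9, Xbp1 and Nupr1 between late and early times. The fit without the acinar-rich arrays left no 8 h array. It could not be made for the 8 h or the late minus early changes, so the part of acinar RNA in these was not tested. Nupr1 entered the tests only through its 8 h arrays, so its kept calls are a description. The 2-fold rule, which has no test, was applied separately, and by it Dnajb9 and Xbp1 fell short between late and early times. The uncalled 12 h difference of Creld2 reversed to -0.12 without replicate 1 of 12 h. Those of Creld2 (2.62), Syvn1 (1.72) and Hspa5 (1.68) were called without replicate 2 of 12 h, and those of Creld2 and Syvn1 also without the low-ratio arrays. For the genes of other lists, 689 of 907 values kept the call, 218 lost it and 0 reversed.

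The counts of called members changed as follows, and the cause was not tested. At 4 h, 0 became 1 with a pseudocount of 228, with an intensity trend, with the low-ratio arrays as a block and with probe sets averaged by gene, and 2 by 2-fold. At 8 h, 4 became 2 without the 4 low-ratio arrays. At 12 h, 7 became 4 without the filter, 3 with array weights, 3 without the 5 acinar-rich arrays, which hold no normal or 12 h array, and 1 with only the arrays compared. At 36 h, 1 became 0 with a pseudocount of 14.25, without the filter, with the low-ratio arrays as a block or left out, without the acinar-rich arrays and with only the arrays compared, and 2 by 2-fold. Late minus early, 6 became 1 by 2-fold. For 8 h minus 4 h, 2 became 1 with a pseudocount of 14.25, without the filter and with the low-ratio arrays as a block or left out, 4 with array weights and with only the arrays compared, and 5 by 2-fold. For 36 h minus 12 h, 3 became 0 without the low-ratio arrays, without the acinar-rich arrays and with only the arrays compared, 5 with probe sets averaged by gene and 11 by 2-fold. Leaving out 1 array gave 0 to 1 members at 4 h, 2 to 6 members at 8 h, 3 to 8 at 12 h, 0 to 1 at 36 h, 0 at both later times, 5 to 10 late minus early, 0 to 5 for 8 h minus 4 h, 0 to 6 for 36 h minus 12 h and 4 to 9 in the F test. A group left with 1 array was assumed to vary like the others.

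Deviations of equal replicate numbers correlated between -0.185 and 0.527 over 21 pairs of groups, over 0.1 in 9, so the numbers were not taken to pair the arrays. With the replicate number as a block, 0 members were called at 4 h, 4 members at 8 h, 6 members at 12 h, 1 at 36 h, 6 late minus early, 2 for 8 h minus 4 h, 4 for 36 h minus 12 h and 6 in the F test. With 2 arrays a group, a change that is not called may still be present.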
